A study of Homo sapiens with 6 samples.

Results

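The set described here holds 10 genes that drive cells into mitosis and out of it again: *CDK1*, the mitotic cyclins *CCNB1*, *CCNB2* and *CCNA2*, the kinases *PLK1*, *AURKA* and *WEE1*, the phosphatases *CDC25B* and *CDC25C*, and *CDC20*. They were chosen by name, with no measured value in the rule, from 58825 genes in the count table. All 10 passed the filter on low counts, after which 19528 genes were left to test.

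Entry into mitosis is driven by CDK1, a kinase that works only when bound to a cyclin. Cyclin A2 acts in S and G2 phase, and cyclins B1 and B2 accumulate in G2. WEE1 places an inhibitory phosphate on CDK1 and the CDC25 phosphatases remove it, while AURKA and PLK1 help to switch the CDC25 side on. Once chromosomes are attached, CDC20 turns the anaphase-promoting complex on the B-type cyclins, which are then degraded. The mRNAs of most of these genes are themselves periodic and peak in G2 and mitosis, so in a growing cancer cell line their level follows both the cycle and the transcription of each gene.

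RNA was taken from HGC-27, a human gastric cancer cell line grown in RPMI-1640 with fetal bovine serum, and sequenced in 6 libraries. Of these, 3 are labelled GC0643 overexpression and 3 carry the empty vector (Vector control). *GC0643* is a gene that the study predicted from sequence outside the human reference genome, and cells stably expressing it were made by retroviral infection and selected with puromycin. Whether each line is 1 clone, and what was repeated to give the 3 replicates, is not stated for these libraries, so p-values measure the spread between libraries only. No count of *GC0643* was analysed, and the labels therefore rest on the submitters' word alone. The comparison asks how forced expression of *GC0643* changes the transcriptome, and here how the mitotic entry genes behave in it.

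Total counts were 20376722 to 21629573 in the GC0643 overexpression libraries and 20489033 to 24069166 in the Vector control libraries. The 3 Vector control libraries did not sit together. Per gene, the chi-square between their counts reached 46.0 for replicates 2 and 3, 18.7 for replicates 1 and 3 and 13.0 for replicates 1 and 2, against 5.80 to 13.4 for the pairs of GC0643 overexpression libraries, and no pair was a duplicate. Replicates 2 and 3 stood at opposite ends, and members' values are therefore also given without each of them. The cells expressed all 10 fibroblast markers listed (summed 7445 to 8326 CPM in GC0643 overexpression libraries and 7590 to 8042 CPM in Vector control libraries). Of 14 gastric epithelial markers, 3 were over 1 CPM (*MUC1*, *VIL1* and *KRT8*), *GKN1*, *PGC* and *TFF2* were at 0, and the sums were 19.8 to 24.7 CPM in GC0643 overexpression libraries and 21.8 to 24.4 CPM in Vector control libraries. The epithelial markers *EPCAM* and *CDH1* did not exceed 0.394 and 0.374 CPM in any library. No endothelial marker passed 1 CPM. Of the erythroid markers, *HBA1* and *HBA2* passed 1 CPM and *HBB* was at 0, with list sums of 15.5 to 21.3 CPM in GC0643 overexpression libraries and 26.9 to 32.9 CPM in Vector control libraries, and their part in the results was not tested.

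Genes of this kind often carry the cell cycle genes homology region (CHR, letters TTTGAA) and CCAAT boxes just before their start, elements bound by the DREAM and MuvB complexes and by the factor NF-Y. The promoters are shown because the members differed in these letters while many of them moved together across libraries. RefSeq windows of GRCh38.p14 around the start, most of their length before it, were matched for 8 of the 10 genes. *AURKA* and *WEE1* were not matched. A CCAAT box on either strand was found in 8 of 8 windows, against 34.6% of all 35116 windows. TTTGAA on either strand was found in 5 of 8 (*CDK1*, *CCNB2*, *PLK1*, *CDC25C* and *CDC20*), against 15.2%, and both motifs stood together in 5 of 8, against 5.9%. In none of the 8 windows did a match of one motif overlap a match of the other. The 150 bases before and around the start of 4 members are printed 5′ to 3′, with CCAAT, its reverse complement ATTGG and TTTGAA in capitals.
CCNB2, chr15:59104996-59105145, plus strand: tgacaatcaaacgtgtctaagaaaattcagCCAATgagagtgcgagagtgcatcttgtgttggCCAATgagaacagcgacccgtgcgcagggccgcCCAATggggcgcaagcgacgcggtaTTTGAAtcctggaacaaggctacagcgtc
CDC20, chr1:43358831-43358980, plus strand: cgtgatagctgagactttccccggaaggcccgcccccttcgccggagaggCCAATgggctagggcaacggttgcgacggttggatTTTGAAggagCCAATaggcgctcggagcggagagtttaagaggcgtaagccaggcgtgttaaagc
CCNB1, chr5:69167000-69167149, plus strand: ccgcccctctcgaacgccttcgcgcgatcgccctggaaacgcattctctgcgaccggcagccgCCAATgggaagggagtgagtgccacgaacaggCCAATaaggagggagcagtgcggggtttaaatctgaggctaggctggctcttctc
CCNA2, chr4:121823884-121824033, minus strand: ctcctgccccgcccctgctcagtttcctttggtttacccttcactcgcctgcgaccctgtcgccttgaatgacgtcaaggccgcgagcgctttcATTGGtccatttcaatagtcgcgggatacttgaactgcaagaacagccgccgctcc
The stretches of *CDC20* and *CCNA2* hold no annotated exon, and the last 20 bases of *CCNB2* and 15 bases of *CCNB1* fall in exons of their own gene. By these exact letters, *CCNB2* and *CDC20* carry both motifs, while *CCNB1* and *CCNA2* carry CCAAT boxes only. Other spellings of the CHR were not searched for, so its absence from *CCNB1* and *CCNA2* is not shown.

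In the other 3 members with TTTGAA most of the same stretch is annotated as exon of some transcript, and only 30 bases around the motif are shown, with TTTGAA in capitals.
CDK1, chr10:60778453-60778482, plus strand: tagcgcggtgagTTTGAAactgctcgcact
PLK1, chr16:23678848-23678877, plus strand: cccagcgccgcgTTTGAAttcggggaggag
CDC25C, chr5:138331817-138331846, minus strand: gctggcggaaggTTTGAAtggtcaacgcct
The first base of the nearest motif before the start lay 13 bases upstream of the start in *CDK1*, 29 bases in *PLK1* and *CCNB2*, 30 in *CDC25C* and 65 in *CDC20*. A match is a description of letters and does not show a bound factor.

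The 10 genes fell into 2 patterns. Read counts of *CDK1*, the 3 cyclins, *AURKA*, *WEE1* and *CDC25C* were higher on average in GC0643 overexpression libraries than in Vector control libraries, by log2 0.15 to 0.54. *PLK1*, *CDC20* and *CDC25B* lay slightly lower, by −0.10 to −0.11. No member passed an adjusted p of 0.05 (edgeR quasi-likelihood test, Benjamini-Hochberg over 19528 genes), and 0% of all genes tested did. At an unadjusted p under 0.05, 2553 genes were higher and 1028 lower in that test. By the other tools, 16 genes of all passed with edgeR's likelihood ratio test, 1 with DESeq2 and 0 with limma voom, and none of them was a member. In these bulk RNA samples, a different share of cells in G2 and mitosis and a different amount of RNA per cell cannot be told apart.

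**Figure D1:**
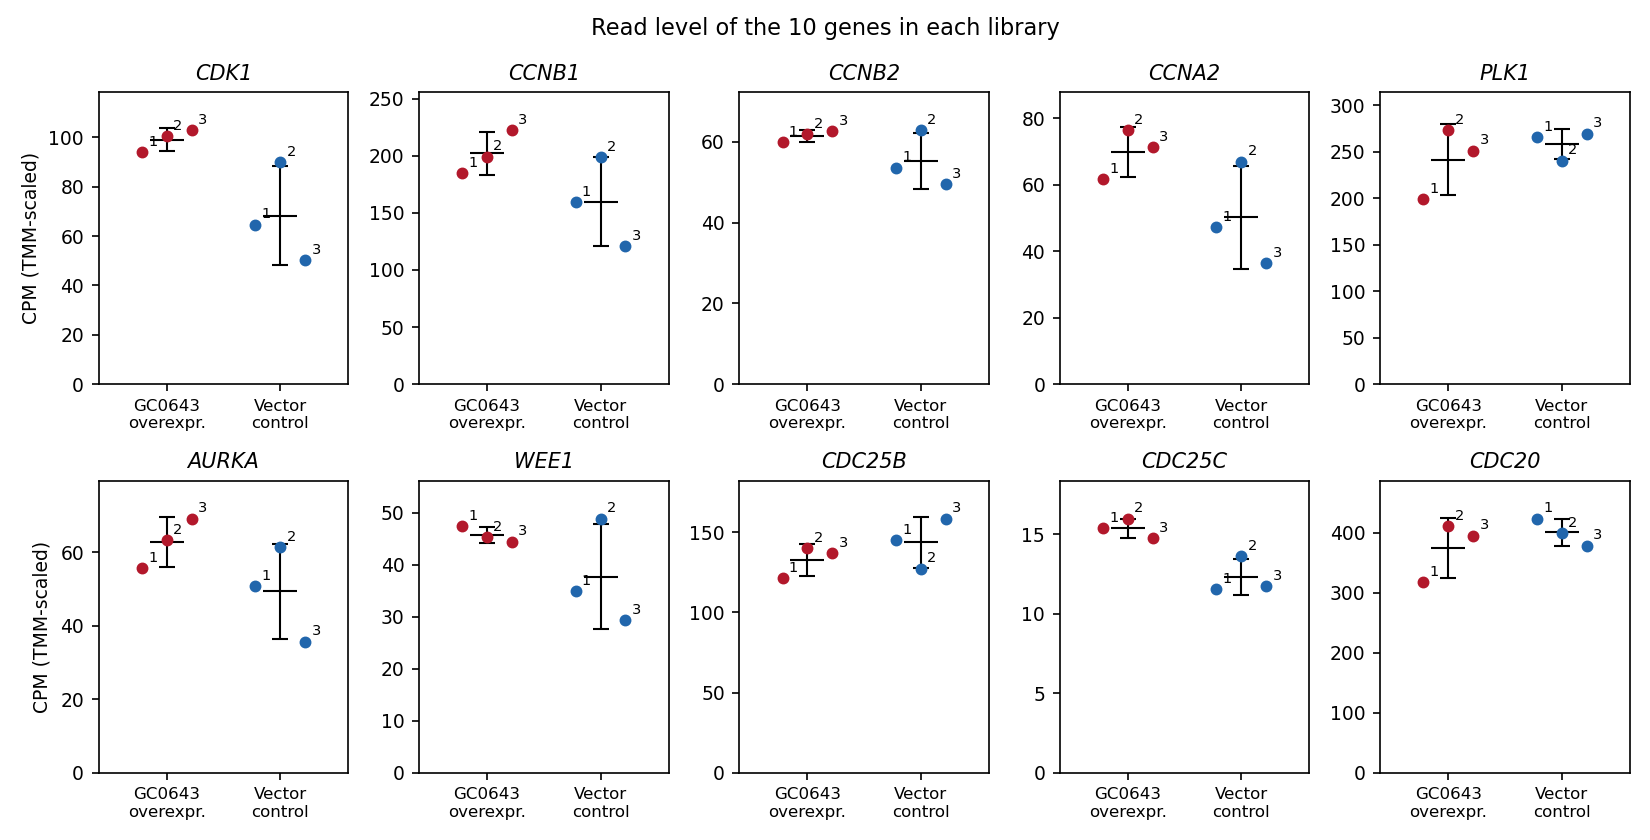
Read level of the 10 genes in each library, in CPM with TMM-scaled totals. Points are libraries with their replicate number, and the bar and whiskers are the mean and SD of 3 libraries. In *CDK1* and *CDC25C* all 3 GC0643 overexpression libraries lie above all 3 Vector control libraries, and in the cyclins, *AURKA* and *WEE1* Vector control replicate 2 lies among the GC0643 overexpression libraries or above them.

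CDK1 is the catalytic partner of both the A-type and the B-type cyclins. Its gene (ENSG00000170312.15, GRCh38 chromosome 10, 60778331 to 60794852, plus strand) had 93.9, 100.3 and 103 CPM (read counts scaled to a common library total, with TMM factors) in GC0643 overexpression replicates 1, 2 and 3, against 64.6, 89.8 and 50.4 CPM in Vector control replicates 1, 2 and 3. Every GC0643 overexpression library was above every Vector control library, and the Vector control libraries were spread over a wider range. The mean was 99.0 ± 4.65 CPM in GC0643 overexpression libraries and 68.3 ± 19.98 CPM in Vector control libraries (SD, n = 3 each). The log2 fold change was 0.54 (SE 0.17, 95% interval 0.17 to 0.90), with an edgeR p of 0.0066 and an adjusted p of 0.26. That fold change was larger than those of 95.8% of the genes tested. Without Vector control replicate 2 it was 0.79, with an edgeR adjusted p of 0.010, and without Vector control replicate 3 it was 0.35, with an edgeR adjusted p of 0.41.

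Cyclin B1, the main partner of CDK1 at mitotic entry, is encoded by *CCNB1* (ENSG00000134057.15, chromosome 5, 69167135 to 69178245, plus strand). It had 185, 199 and 222 CPM in GC0643 overexpression replicates 1, 2 and 3, against 159, 198.7 and 121 CPM in Vector control replicates 1, 2 and 3. Vector control replicate 2 lay within the range of the GC0643 overexpression libraries, and the other two Vector control libraries lay below it. The log2 fold change was 0.34 (SE 0.16), with an edgeR p of 0.046 and an adjusted p of 0.27. With Vector control replicate 2 left out it was 0.53, with an edgeR adjusted p of 0.021, and without Vector control replicate 3 it was 0.17, with an edgeR adjusted p of 0.59 and an unadjusted p over 0.05.

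*CCNB2* encodes cyclin B2, which is found largely at the Golgi (ENSG00000157456.8, chromosome 15, 59105126 to 59125045, plus strand). It had 59.9, 61.8 and 62.7 CPM in GC0643 overexpression replicates 1, 2 and 3, against 53.6, 62.9 and 49.4 CPM in Vector control replicates 1, 2 and 3. The highest of the 6 libraries was Vector control replicate 2, so the groups overlapped. With a log2 fold change of 0.15 (SE 0.13, edgeR adjusted p = 0.49), it was the smallest difference among the 3 cyclins. Leaving out Vector control replicate 2 gave 0.26 (edgeR adjusted p = 0.12, unadjusted p under 0.05), and without Vector control replicate 3 it was 0.07.

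Cyclin A2 binds CDK2 in S phase and CDK1 in G2. *CCNA2* (ENSG00000145386.10, chromosome 4, 121816444 to 121823883, minus strand) had 61.8, 76.4 and 71.2 CPM in GC0643 overexpression replicates 1, 2 and 3, against 47.3, 67.0 and 36.5 CPM in Vector control replicates 1, 2 and 3. Again only Vector control replicate 2 reached into the range of the GC0643 overexpression libraries. The log2 fold change was 0.48 (SE 0.18), with an edgeR p of 0.020 and an adjusted p of 0.26. Without Vector control replicate 2 it was 0.74, with an edgeR adjusted p of 0.010, and without Vector control replicate 3 it was 0.28, with an edgeR adjusted p of 0.48 and an unadjusted p over 0.05. *CCNA2* shares its end with *EXOSC9*, a gene of the RNA exosome on the opposite strand. *EXOSC9* had 618, 756 and 690 counts in GC0643 overexpression replicates 1, 2 and 3, against 494, 608 and 406 counts in Vector control replicates 1, 2 and 3, and a log2 fold change of 0.48 (SE 0.18, edgeR adjusted p = 0.26). The strand setting of the counting is not stated for these libraries, so reads where the 2 genes overlap cannot be told apart.

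WEE1 holds CDK1 inactive until the cell is ready to divide. *WEE1* (ENSG00000166483.11, chromosome 11, 9573670 to 9593457, plus strand) had 47.4, 45.3 and 44.4 CPM in GC0643 overexpression replicates 1, 2 and 3, against 34.9, 48.9 and 29.3 CPM in Vector control replicates 1, 2 and 3. The GC0643 overexpression libraries lay close together, and the highest and lowest values both came from Vector control libraries. The log2 fold change was 0.28 (SE 0.17, edgeR adjusted p = 0.34), and without Vector control replicate 2 it was 0.51 with an edgeR adjusted p of 0.017. With Vector control replicate 3 left out it was 0.12, with an edgeR adjusted p of 0.74.

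CDC25B and CDC25C oppose WEE1 by removing the inhibitory phosphates from CDK1, CDC25B as an early activator at the centrosome. The log2 fold changes of the 2 phosphatases had opposite signs, but the 95% interval of *CDC25B* (−0.38 to 0.15) spanned 0. *CDC25C* (ENSG00000158402.20, chromosome 5, 138285269 to 138338355, minus strand) had 15.4, 15.998 and 14.8 CPM in GC0643 overexpression replicates 1, 2 and 3, against 11.6, 13.6 and 11.8 CPM in Vector control replicates 1, 2 and 3. All 3 GC0643 overexpression libraries were above all 3 Vector control libraries, and the log2 fold change was 0.32 (SE 0.15), with an edgeR p of 0.048 and an adjusted p of 0.27. Its value was 0.40 without Vector control replicate 2 (edgeR adjusted p = 0.063), and without Vector control replicate 3 it was 0.28 and the unadjusted p was over 0.05. *CDC25B* (ENSG00000101224.17, chromosome 20, 3786772 to 3806121, plus strand) had 121, 140.1 and 137 CPM in GC0643 overexpression replicates 1, 2 and 3, against 145, 127 and 158 CPM in Vector control replicates 1, 2 and 3. Here Vector control replicate 2 was the lowest of its group and the groups overlapped, with a log2 fold change of −0.11 (SE 0.12, edgeR adjusted p = 0.59). This was −0.19 without Vector control replicate 2 (edgeR adjusted p = 0.24), and without Vector control replicate 3 it was −0.044. *CDC25C* lies across *FAM53C* on the opposite strand, which took 2020 to 2267 counts in GC0643 overexpression libraries and 2127 to 3136 counts in Vector control libraries, with a log2 fold change of −0.21. *CDC25C* itself took 300 to 339 counts in GC0643 overexpression libraries and 235 to 283 counts in Vector control libraries, and reads where the 2 genes overlap cannot be told apart either.

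AURKA matures the centrosomes and, with its cofactor BORA, phosphorylates and activates PLK1. *AURKA* (ENSG00000087586.17, chromosome 20, 56369389 to 56392337, minus strand) had 55.7, 63.3 and 69.2 CPM in GC0643 overexpression replicates 1, 2 and 3, against 50.9, 61.5 and 35.7 CPM in Vector control replicates 1, 2 and 3. Only Vector control replicate 2 lay within the GC0643 overexpression range, and the log2 fold change was 0.35 (SE 0.17, edgeR adjusted p = 0.28). Without Vector control replicate 2 it was 0.54, with an edgeR adjusted p of 0.030, and without Vector control replicate 3 it was 0.15, with an edgeR adjusted p of 0.65. Its pseudogene *AURKAP1* took at most 16 counts in any library.

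PLK1, the polo-like kinase that marks WEE1 for degradation and activates CDC25C, did not follow AURKA. *PLK1* (ENSG00000166851.15, chromosome 16, 23677656 to 23690367, plus strand) had 199, 273 and 251 CPM in GC0643 overexpression replicates 1, 2 and 3, against 266, 240.4 and 269 CPM in Vector control replicates 1, 2 and 3. The groups overlapped, and both the lowest and the highest value came from GC0643 overexpression libraries. The log2 fold change was −0.10 (SE 0.13, 95% interval −0.38 to 0.18, edgeR adjusted p = 0.66). An antisense lncRNA inside *PLK1* (ENSG00000261266) took 718, 1011 and 906 counts in GC0643 overexpression replicates 1, 2 and 3, against 918, 916 and 1002 counts in Vector control replicates 1, 2 and 3, in the same order as *PLK1* among the GC0643 overexpression libraries. Without a stated strand setting, its reads and those of *PLK1* cannot be told apart.

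CDC20 starts the destruction of cyclin B and of securin at anaphase. *CDC20* (ENSG00000117399.14, chromosome 1, 43358981 to 43363203, plus strand) had 317, 411 and 395 CPM in GC0643 overexpression replicates 1, 2 and 3, against 423, 399.7 and 378 CPM in Vector control replicates 1, 2 and 3. GC0643 overexpression replicate 1 was the lowest and Vector control replicate 1 the highest, with the other libraries mixed between them. The log2 fold change was −0.10 (SE 0.12, 95% interval −0.36 to 0.16, edgeR adjusted p = 0.65).

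Per kilobase of the canonical transcript, *CDC20* had the highest level in both groups, at 227 ± 30.5 CPM per kb in GC0643 overexpression libraries and 243 ± 13.7 CPM per kb in Vector control libraries (SD, n = 3 each). *PLK1* came next at 112 ± 17.7 CPM per kb in GC0643 overexpression libraries and 119.7 ± 7.29 CPM per kb in Vector control libraries, and *CCNB1* after it at 99.6 ± 9.30 CPM per kb in GC0643 overexpression libraries and 78.7 ± 19.1 CPM per kb in Vector control libraries. The lowest levels were those of *WEE1*, 12.7 CPM per kb in GC0643 overexpression libraries and 10.5 CPM per kb in Vector control libraries, and of *CDC25C*, 7.36 CPM per kb in GC0643 overexpression libraries and 5.89 CPM per kb in Vector control libraries. In GC0643 overexpression libraries *CDK1* followed *CCNB1* at 52.4 CPM per kb, with its libraries clear of *CDC25B* below it. In Vector control libraries *CDC25B* followed *CCNB1* at 46.0 CPM per kb, and neighbours overlapped from *CDC25B* through *CCNB2*, *CDK1*, *AURKA* and *CCNA2* to *WEE1*, while *WEE1* lay clear of *CDC25C*. In GC0643 overexpression libraries the overlapping neighbours were *PLK1* with *CCNB1*, *CDC25B* with *CCNB2*, and *AURKA* with *CCNA2*.

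Counted together, the log2 fold change was above 0 in 7 of the 10 members and below 0 in 3. At an unadjusted p under 0.05, 4 members were higher (*CDK1*, *CCNA2*, *CCNB1* and *CDC25C*), against 13.1% of all genes tested, and 0 were lower, against 5.26%. The count of members higher was 7 without Vector control replicate 2, where 4564 of 19988 genes tested were higher. It was 2 without GC0643 overexpression replicate 3, where 1268 of 19947 were. It was 1 (*CDK1*) without GC0643 overexpression replicate 2, Vector control replicate 1 or Vector control replicate 3. In those fits 2045 of 19957, 827 of 19965 and 1531 of 19847 genes were higher. The study's thresholds, a fold change over 1.5 and an unadjusted p under 0.05, were met by 0 members in either direction, against 1.6% of genes higher and 0.871% lower. All 3 GC0643 overexpression libraries lay above all 3 Vector control libraries in 2 members, against 11.8% of genes tested, and below in 0 members, against 10.5%. The members' median log2 fold change was 0.30, and that of all genes tested was 0.02. Leaving out Vector control replicate 2 gave the members a median of 0.46, and leaving out Vector control replicate 3 gave 0.13. Without Vector control replicate 2, 5 members were higher at an edgeR adjusted p under 0.05 (*CDK1*, *CCNA2*, *CCNB1*, *WEE1* and *AURKA*), but so were 14.7% of 19988 genes tested. None was lower, against 4.36%.

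The 7 members with a log2 fold change above 0 varied together from library to library. Over the 6 libraries, Pearson's r of their log2 CPM with each other lay between 0.73 (*AURKA* with *CDC25C*) and 0.99 (*CCNB1* with *AURKA*). *PLK1* followed *CDC20* (r = 0.87) and *CDC25B* (r = 0.84), while *WEE1* and *CDC25B* ran against each other (r = −0.90). These are descriptions over 6 libraries that share 2 groups and their base composition. *CCNB1* and *CCNB2*, which encode cyclins of the same type, did not keep a fixed proportion: there were 3.09, 3.22 and 3.55 *CCNB1* reads per *CCNB2* read in GC0643 overexpression replicates 1, 2 and 3, against 2.97, 3.16 and 2.45 in Vector control replicates 1, 2 and 3. The 3.22 and 3.09 of GC0643 overexpression replicates 2 and 1 lie either side of the 3.16 of Vector control replicate 2, so the groups overlap. The ratio of *WEE1* to *CDC25B* compares mRNA reads of transcripts of 46.7% and 59.1% G+C, not protein or activity. *WEE1* reads per *CDC25B* read were 0.391, 0.323 and 0.325 in GC0643 overexpression replicates 1, 2 and 3. They were 0.241, 0.384 and 0.185 in Vector control replicates 1, 2 and 3. Vector control replicate 2 was again with the GC0643 overexpression libraries. These ratios were chosen after their values were seen.

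**Figure D2:**
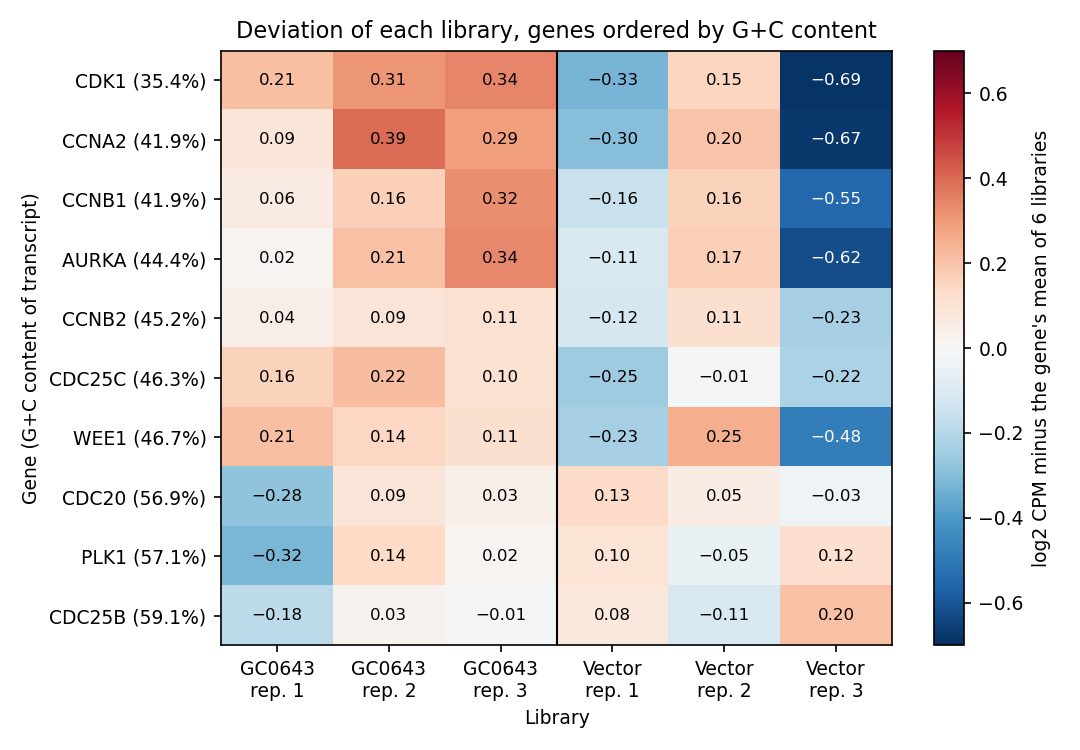
Log2 CPM of each member in each library, as the difference from the gene's mean over the 6 libraries. *CDK1*, the 3 cyclins, *AURKA* and *WEE1* are lowest in Vector control replicate 3 and above 0 in Vector control replicate 2, and *CDC25C* is at −0.01 in that library and lowest in Vector control replicate 1.

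The 2 patterns divided by base composition. The 7 members above 0 had canonical transcripts of 35.4% (*CDK1*) to 46.7% (*WEE1*) G+C, and the 3 below 0 had 56.9% (*CDC20*) to 59.1% (*CDC25B*). Across the 10 members, log2 fold change against G+C content gave Pearson's r = −0.96 and Spearman's rho = −0.95, and across all 19401 tested genes with a value r = −0.60 and rho = −0.67. Against transcript length, the members gave r = 0.03 and rho = −0.16. These are correlations across genes, which are not independent replicates.

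**Figure D3:**
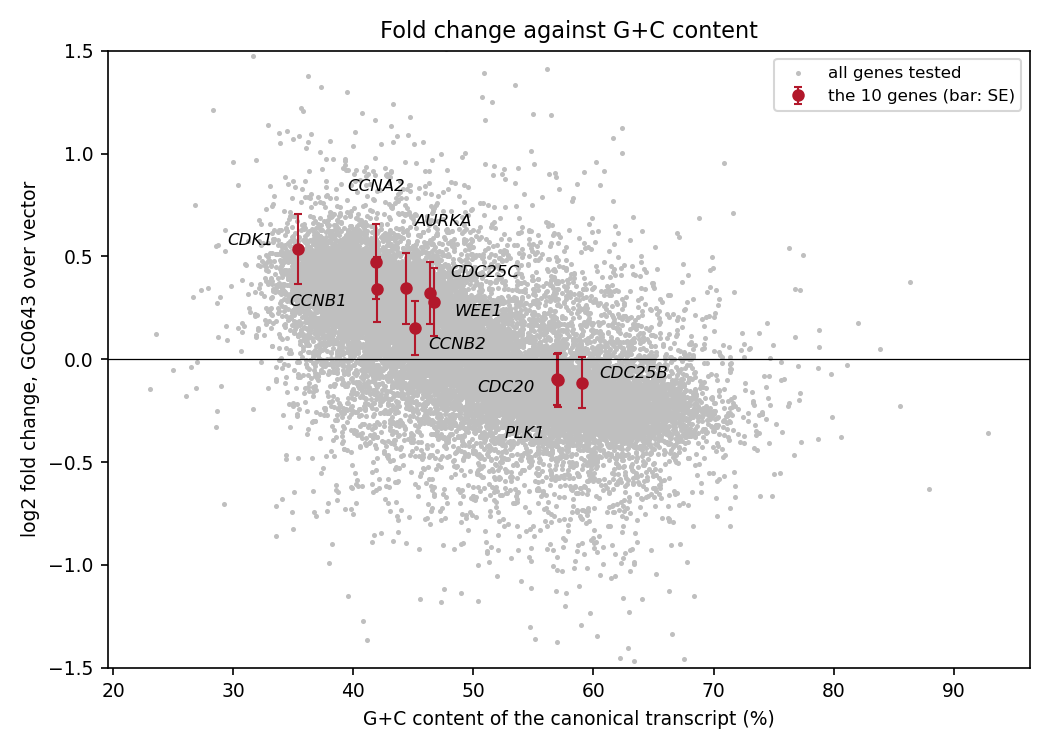
Log2 fold change, GC0643 overexpression over Vector control, against the G+C content of the canonical transcript, for all genes tested (grey) and the 10 members (red, bars are SE). Fold changes fall with G+C content, the members lie within the cloud of other genes, and 26 genes lie outside the plotted range.

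By library, the members under and over 50% G+C lay furthest apart in Vector control replicate 3. The 7 members under 50% G+C had median deviations, in log2 CPM from each gene's mean, of 0.09, 0.21 and 0.29 in GC0643 overexpression replicates 1, 2 and 3, against −0.23, 0.16 and −0.55 in Vector control replicates 1, 2 and 3. The 4851 tested genes with at most 42.6% G+C had 0.22, 0.08 and 0.21 in GC0643 overexpression replicates 1, 2 and 3, against −0.24, 0.08 and −0.33 in Vector control replicates 1, 2 and 3. Both sets were negative in Vector control replicates 1 and 3 and positive in the other 4 libraries. The 3 members over 50% G+C had medians of −0.28, 0.09 and 0.02 in GC0643 overexpression replicates 1, 2 and 3, against 0.10, −0.05 and 0.12 in Vector control replicates 1, 2 and 3. The 4852 tested genes with the highest G+C content, at least 57.2%, had −0.14, −0.04 and −0.11 in GC0643 overexpression replicates 1, 2 and 3, against 0.12, −0.04 and 0.25 in Vector control replicates 1, 2 and 3. In GC0643 overexpression replicates 2 and 3 the median of these 3 members lay above 0, where that of the genes of high G+C content lay below it. *CDC25B* was at −0.009 in GC0643 overexpression replicate 3. *PLK1* and *CDC20*, at 57.1% and 56.9% G+C, fall just short of the 57.2% that bounds that set.

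A correction for G+C content fitted, in each library, a loess curve to the deviations from each gene's mean log2 CPM. With it, no member passed an unadjusted p of 0.05. Among all genes tested, 2.87% were then higher and 3.24% lower at that p. The corrected log2 fold change was 0.21 for *CDK1* (SE 0.12, edgeR adjusted p = 0.79), 0.25 for *CCNA2* (SE 0.15, edgeR adjusted p = 0.79), 0.11 for *CCNB1* and 0.19 for *CDC25C*. The values of *PLK1*, *CDC20* and *CDC25B* turned to 0.0496, 0.0439 and 0.0642, that of *CCNB2* to −0.0137, and the members' median to 0.14. With the correction and without Vector control replicate 2, the log2 fold changes of *CDK1* (0.32), *CCNA2* (0.41) and *WEE1* (0.35) had an unadjusted p under 0.05. Their edgeR adjusted p was 0.35, 0.31 and 0.28. Of the 19988 genes tested in that fit, 1364 were higher and 1062 lower at that unadjusted p. The correction takes out any change that runs with G+C content, so a difference in library preparation and one in the cells cannot be told apart by it.

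**Figure D4:**
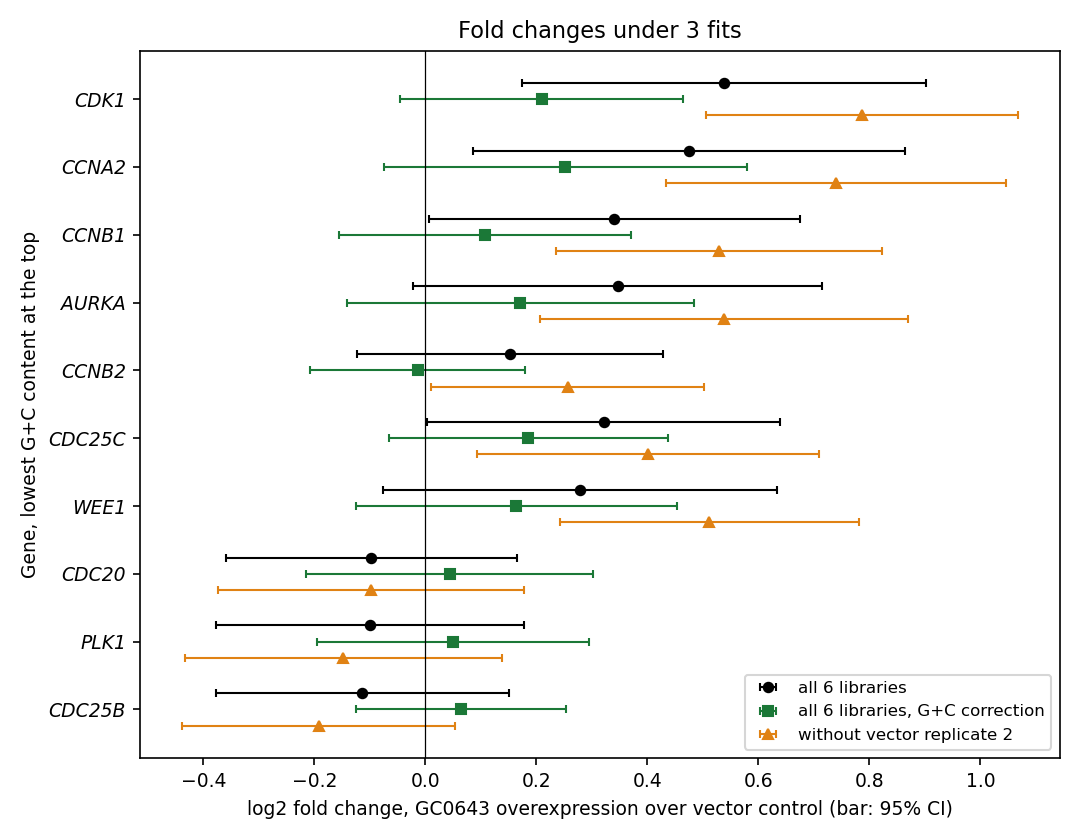
Log2 fold change, GC0643 overexpression over Vector control, of each member from all 6 libraries, with the G+C correction, and without Vector control replicate 2, with 95% intervals. The values of *CDK1*, *CCNA2*, *CCNB1*, *AURKA* and *WEE1* are larger without that library and smaller with the correction.

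Of 26 other regulators of mitotic entry tested, 17 lay above 0 and 9 below. At an unadjusted p under 0.05, 12 were higher, against 13.1% of all genes, and 2 were lower, against 5.26%. The median log2 fold change was 0.29, and 0.08 after the G+C correction. The 4 with the smallest p were *LIN9* (0.52), a subunit of the MuvB complex, *HMMR* (0.53), a spindle protein, *MNAT1* (0.50), a subunit of the kinase that activates CDK1, and *ARPP19* (0.49), which inhibits the phosphatase that opposes CDK1. Their adjusted p was 0.26 (edgeR). Corrected, these were 0.17, 0.21, 0.17 and 0.17. The 2 that were lower were *PKMYT1* (−0.35), the membrane-bound relative of WEE1, and *MYBL2* (−0.28), a transcription factor that works with MuvB. Both had G+C-rich transcripts (67.3% and 60.0%), and corrected they were −0.118 and −0.099. After the correction 1 of the 26 was higher at an unadjusted p under 0.05 (*PLK2*, 0.24) and 0 were lower, against 2.87% and 3.24%. *PKMYT1*, *MYBL2* and *PLK2* were named after their values were seen.

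The anaphase-promoting complex and its helpers, the partners of CDC20, had a median of 0.27 over 21 genes, and 0.14 after the G+C correction. An unadjusted p under 0.05 was reached by 7 genes upward and 1 downward, against 13.1% and 5.26% of all genes. After the correction it was reached by 1 upward and 0 downward, against 2.87% and 3.24%. The smallest p belonged to the subunit genes *CDC23* (0.48), *ANAPC10* (0.51) and *CDC27* (0.47) and to *UBE2D1* (0.51), a ubiquitin-conjugating enzyme. *CDC23* was past the unadjusted p after the correction too, at 0.26. The gene that was lower was *UBE2S* (−0.28), the enzyme that extends ubiquitin chains, named after its value was seen.

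Upstream in the cycle the direction was mixed. Of 23 G1/S cyclins, kinases and inhibitors, 3 passed the unadjusted p of 0.05 upward and 4 downward, against 13.1% and 5.26% of all genes, and the median was −0.0072. After the G+C correction 1 passed upward (*RBL2*) and 3 downward (*CDK4*, *CDKN2C* and *CCND2*), against 2.87% and 3.24% of all genes. The median was then −0.08. The retinoblastoma family genes *RBL2* (0.48) and *RB1* (0.48) were higher, as was *CCNE2* (0.49), and *E2F1* (−0.36), *CDKN2A* (−0.32), *E2F2* (−0.40) and *CDK4* (−0.25) were lower. *CCNE2*, *E2F2*, *CDK4*, *CDKN2C* and *CCND2* were named after their values were seen. *CDKN1A*, the p53 target that inhibits CDKs, averaged 40.0 ± 13.6 CPM in GC0643 overexpression libraries and 52.7 ± 26.3 CPM in Vector control libraries (SD, n = 3 each), with a log2 fold change of −0.40 (SE 0.28, edgeR adjusted p = 0.41). Its libraries overlapped.

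Of 18 G2 checkpoint genes, 4 passed the unadjusted p of 0.05 upward and 0 downward, against 13.1% and 5.26% of all genes, with a median of 0.23. After the G+C correction 1 passed upward and 1 downward, against 2.87% and 3.24% of all genes, and the median was 0.04. The 4 that were higher without the correction were *BTRC* (0.46), part of the ligase that degrades WEE1, *RAD17* (0.44), *TOPBP1* (0.40) and the checkpoint kinase *ATR* (0.50). After the correction *BTRC* was past the unadjusted p upward, at 0.29, and *BRCA1* downward, at −0.26. *BRCA1* was named after its value was seen. Among S phase markers, the replication genes *PCNA* (0.44), *RRM1* (0.39) and *MCM6* (0.33) were higher at an unadjusted p under 0.05, *MCM6* being named after its value was seen, and *CDT1* (−0.39), the licensing factor, was lower. None of these list genes passed an adjusted p of 0.05 in edgeR's test.

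The protein-coding genes outside the set whose level followed the members' mean profile most closely over the 6 libraries were *NUDCD1* (Pearson's r = 0.9997), *DNAAF4* (0.998), an unnamed gene (ENSG00000258466, 0.997), *HNRNPC* (0.997) and *FBXO5* (0.997), which encodes an inhibitor of the anaphase-promoting complex. That profile was 0.00, 0.18 and 0.17 in GC0643 overexpression replicates 1, 2 and 3, against −0.12, 0.09 and −0.32 in Vector control replicates 1, 2 and 3, in log2 CPM from the mean. It set Vector control replicate 3 apart from the others more than it set the groups apart, and GC0643 overexpression replicate 1 lay below Vector control replicate 2. The named genes were picked as the highest among all protein-coding genes over only 6 libraries, without a test. Their transcripts had 35.9% (*NUDCD1*) to 48.1% (ENSG00000258466) G+C.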

How the data were processed

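RNA-seq of HGC-27 cells gave 6 libraries, 3 of each group. The deposited values are raw counts per Ensembl gene, for which the submitters' processing notes name Trimmomatic 0.32, HISAT2 2.1.0, featureCounts 2.0.0 and GRCh38. The kit was NEBNext Ultra. The counting options are not given in the sources used here for these libraries. Of 58825 genes, 58472 matched GENCODE by Ensembl ID, which gave positions, transcript length and G+C content.

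After filterByExpr and TMM scaling, counts were fitted with edgeR 4.0.16 (quasi-likelihood, two-sided, group as the only term) in R 4.3.3, with Benjamini-Hochberg adjustment over 19528 genes. The biological coefficient of variation was 14.8%. The members and lists were chosen with earlier results of these data known. Named genes are the 10 members, overlapping genes and pseudogenes, up to 4 genes per list with the smallest p, *CDKN1A*, and the 5 genes most like the members. The 19 alternatives were edgeR's likelihood ratio test, DESeq2 1.42.0, limma 3.58.1 voom, DESeq2 size factors, library size alone, no filter, CPM over 1 in at least 3 libraries, a replicate block, loess corrections for G+C content or length (span 0.3, prior count 1), the block with G+C correction, G+C correction without Vector control replicate 2, pseudogene counts summed with their parents, and each library left out. The leukocyte marker list and the counts over the S phase list are not reported here. Code was tested on simulated counts. Figures were drawn with Python 3.11.15 and matplotlib 3.10.9.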

Additional observations from a re-analysis of the deposited data

How the results depend on the processing

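Of the values of single members under the alternatives, 171 kept their direction and side of the threshold, 13 reversed and 6 became past it. The number of genes past the adjusted p was 0, and became 16 with the likelihood ratio test, 1 with DESeq2 or its size factors, 224 with no filter, 24 with the replicate block and 2 with block and G+C correction. It ranged from 0 to 3813 with 1 library left out, the highest without Vector control replicate 2. Members past the adjusted p were 0, but 1 with no filter (*CDK1*), and 0 to 5 with 1 library left out. Members higher at the unadjusted p were 4, but 2 with DESeq2 or its size factors, 3 with the likelihood ratio test, the replicate block, length correction or G+C correction without Vector control replicate 2, 5 with limma voom, 0 with G+C correction and 0 with block and G+C correction, and 1 to 7 with 1 library left out. Among all genes tested, 827 to 4564 were higher at that p with 1 library left out. With G+C correction and without Vector control replicate 2, 1364 were. Members higher by the study's thresholds were 0 to 2 with 1 library left out. Members with every GC0643 overexpression library above every Vector control library were 2, but 1 with G+C correction with or without the block, 4 with it and without Vector control replicate 2, and 2 to 7 with 1 library left out. Those below were 0 to 1. Groups with 1 library left out separate more easily, so those counts cannot be set against the 11.8% of genes found with no library left out. The share of all genes is not given for those fits.

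The G+C correction turned *CCNB2* to −0.0137, *PLK1* to 0.0496, *CDC25B* to 0.0642 and *CDC20* to 0.0439, and with the replicate block to −0.0139, 0.0383, 0.0617 and 0.0412. Corrected without Vector control replicate 2, *PLK1* was 0.0681, *CDC25B* 0.0540 and *CDC20* 0.113. With 1 library left out, *PLK1* ranged from −0.21 to 0.0222 and *CDC20* from −0.18 to 0.0096, both highest without GC0643 overexpression replicate 1. The cause of these changes was not tested. The members' median was 0.13 to 0.46 with 1 library left out, lowest without Vector control replicate 3. *CDK1* had a log2 fold change of 0.35 to 0.79 and an unadjusted p under 0.05 in all 6 such fits. Over the genes tested, deviations of same-numbered libraries from their group means gave r of −0.21, −0.03 and −0.31. These values cannot decide whether the numbers pair libraries, because the shifts of each library with G+C content enter them too. The median under the block was 0.32. With 3 libraries per group, the lowest limit among the members' 95% intervals was −0.38 (*PLK1* and *CDC25B*), and the highest was 0.90 (*CDK1*).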
